A study of Mus musculus with 6 samples.

Results

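The Myc, Max and Mxd network was followed in the response of mouse embryonic stem cells to retinoic acid (RA), a signalling form of vitamin A under which such cells differentiate. Its 9 members were taken by gene symbol from the deposited expression table, and they are Myc, Mycn, Max, Mxd1, Mxd3, Mxd4, Mxi1, Mnt and Mga, or 9 of 20460 genes. All 9 had a mean of at least 1 FPKM (fragments scaled to transcript length and library depth) and entered the tests, which covered 11227 genes. The cells were J1 embryonic stem cells of strain 129S4/SvJae, grown on gelatin, and the growth medium contained the cytokine LIF. The study asked what the arginine methyltransferase CARM1, a coactivator that methylates histones and other proteins, does in this differentiation. It used 3 lines, namely wild-type cells, cells carrying a scramble control short hairpin RNA (shRNA) and cells in which an shRNA lowered Carm1. Each was given either the ethanol vehicle or 1 µM RA for 48 h. There was 1 library per line and treatment, so 6 libraries in all. Where 3 values stand side by side, their order is wild-type, scramble, Carm1 shRNA. Each shRNA was represented by 1 line, and the labels describe no replicate cultures, so p-values here reflect the spread among these libraries alone.

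The proteins of this network are transcription factors with a basic helix-loop-helix leucine zipper, and they share Max as a partner. Myc and Mycn bind DNA as heterodimers with Max at E-boxes and raise the transcription of genes for ribosome production, nucleotide and polyamine synthesis and cell growth. The Mxd proteins, Mxi1 and Mnt also need Max to bind the same E-boxes, and they recruit Sin3 corepressors with histone deacetylases, so they act as antagonists of Myc. Mga carries a T-box beside its helix-loop-helix domain and, with Max, belongs to a Polycomb complex (PRC1.6) that keeps germ cell genes silent in embryonic stem cells. In these cells Myc is known to lie downstream of LIF and Stat3, and Myc and Mycn can replace each other in much of their work.

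The promoters of the members that moved furthest are shown because they hold matches to 2 kinds of site of interest here, the E-box that the network itself binds and the E2F site of cell cycle genes. RefSeq promoters on build GRCm38.p6, from 250 bases before to 50 bases after the start of transcription, were matched by symbol for 8 members (all but Myc), with 10 sequences in all, since Mxi1 had 3. Capitals mark matches to E2F sites (TTTCCCGC, TTTCGCGC, TTTGCCGC or TTTGGCGC) in the promoter of Mycn and to the E-box CACGTG in that of Mxd4, both searched on both strands. Each is printed 5′ to 3′ on the strand of its gene, which is the minus strand for both, with the window at chr12:12941787-12942086 for Mycn and at chr5:34187661-34187960 for Mxd4.
Mycn: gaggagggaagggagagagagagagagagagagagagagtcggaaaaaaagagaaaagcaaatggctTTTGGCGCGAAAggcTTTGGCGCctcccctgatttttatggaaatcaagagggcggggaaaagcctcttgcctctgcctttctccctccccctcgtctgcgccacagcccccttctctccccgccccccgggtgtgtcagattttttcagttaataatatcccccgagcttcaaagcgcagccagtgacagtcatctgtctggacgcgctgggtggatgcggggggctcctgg
Mxd4: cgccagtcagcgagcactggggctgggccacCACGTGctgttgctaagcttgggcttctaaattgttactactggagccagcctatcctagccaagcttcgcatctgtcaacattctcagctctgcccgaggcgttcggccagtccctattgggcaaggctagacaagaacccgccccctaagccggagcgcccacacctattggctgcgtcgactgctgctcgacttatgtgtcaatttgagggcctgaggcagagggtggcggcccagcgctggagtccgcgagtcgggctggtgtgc

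The Mycn window held 3 E2F matches, and the first began 183 bases before the start site. The second match lies on the other strand and overlaps the first, so both fall in 1 run of capitals, and the third began 168 bases before the start. An E2F match was present in 2.265% of all 32851 promoters of this length and in none of the other members' promoters searched. The E-box was found in the promoters of 3 members. It began 219 bases before the start in Mxd4 and 123 bases before the start in Mnt, and in Max it crossed the listed start site. The end of the Max window was found in no annotated transcript of the gene, unlike those of the other members searched. The start site of Max is therefore less sure. An E-box stood in 7.15% of all promoters. None of the 10 promoters searched, which do not include one for Myc, held TTCNNNGAA, the core of a Stat site, which was present in 8.30% of all promoters, or the DR5 retinoic acid element, present in 0.323%. These matches describe the letters of the windows and not the binding of any factor.

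Judged from how low values step, searched within a preset range of depths, the libraries held between 25400000 and 33900000 reads, lowest in the scramble vehicle library. The deposited values summed to between 505264 and 537543 FPKM, and 10630 to 11518 genes reached 1 FPKM, with every RA library above every vehicle library in that number. Under vehicle, Carm1 was measured at 8.49 FPKM in its shRNA line, where the scramble cells had 36.1 FPKM and the wild-type cells 37.0 FPKM. Under RA the Carm1 level was 29.5 FPKM in the wild-type line, 29.9 FPKM in the scramble line and 6.73 FPKM in the Carm1 shRNA line. Of 10 markers of embryonic stem cells, 8 fell with RA, against 20.7% of all genes tested, and 2 did not pass the test. The summed level of the 10 was 5477 to 5815 FPKM with vehicle and 2861 to 4401 FPKM with RA. With no filter on low values 1 of the 10 was called lower. In these bulk samples fewer cells that express a gene and less of its RNA per cell cannot be told apart, and this holds for every change that follows.

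The RA response was tested in 1 model over the 6 libraries with the line as a block, on the scale log2(FPKM + 1), which understates the change of low genes. At an adjusted p under 0.05, 63.6% of all genes tested were called, 42.9% as higher and 20.7% as lower. Of the 9 members 5 were called, 3 higher and 2 lower, so their share was close to that of all genes. The libraries of the 2 treatments did not overlap in 7 members (3 higher and 4 lower), against 61.0% of all genes tested. By size, Mxd4 rose at least 2-fold in all 3 lines, as did 5.22% of genes tested. Myc and Mycn fell at least 2-fold in all 3 lines, as did 0.802% of genes tested. The median log2 change over all genes tested was 0.14. It was 0.0015 once the libraries were rescaled by median of ratios and -0.05 once they were quantile normalized, and the share of calls that were higher went from 67.4% to 50.2% and 43.7%.

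**Figure D1:**
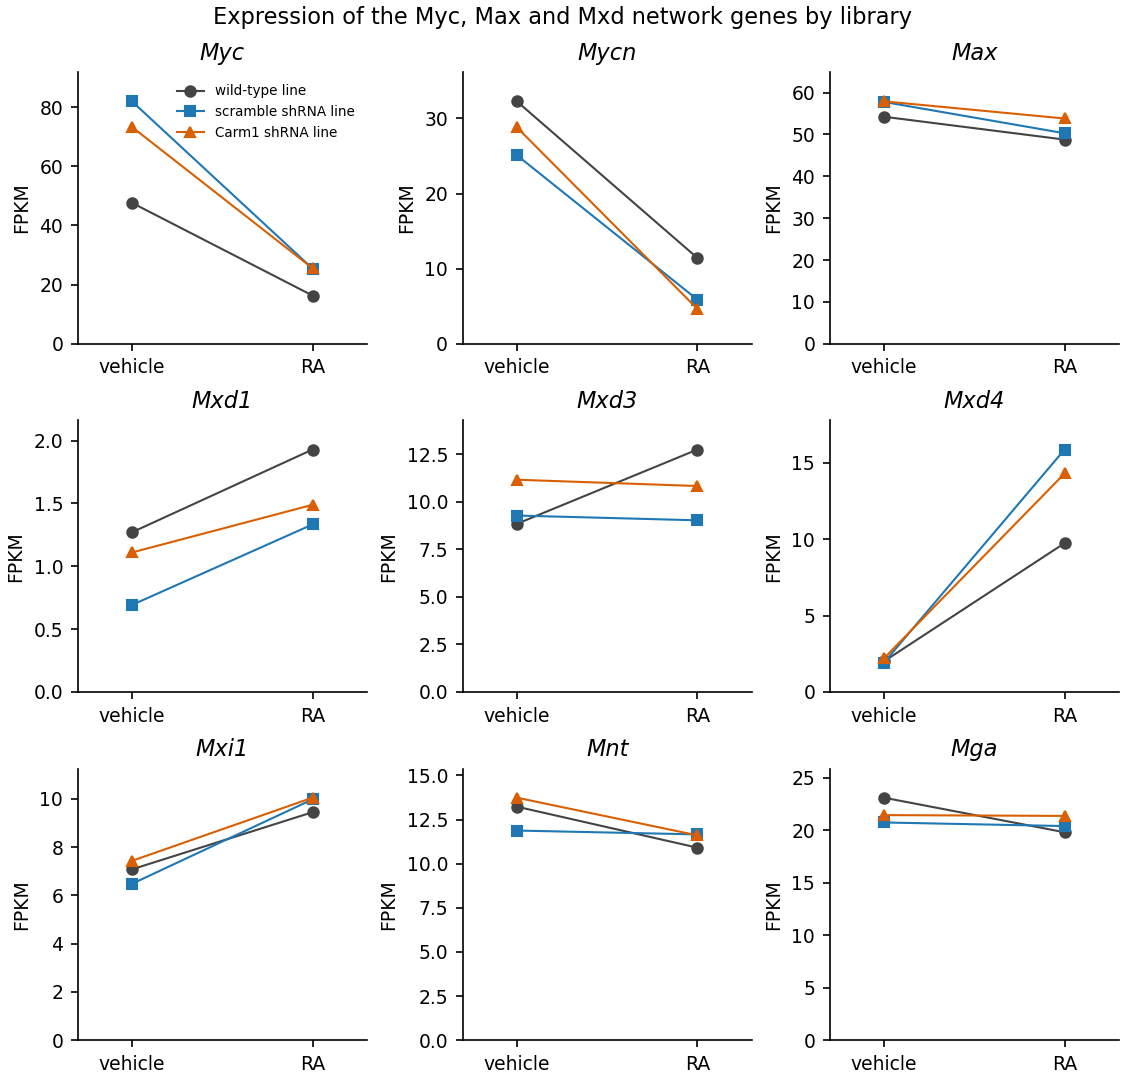
Level of each of the 9 members in FPKM in every library, with 1 point per library, lines joining the vehicle and RA libraries of a cell line, and an axis of its own for each gene. Myc and Mycn lie lower with RA in all 3 lines, Mxd4 lies between 1.92 and 2.20 FPKM with vehicle and between 9.74 and 15.9 FPKM with RA, and Mxd3 and Mga overlap between treatments.

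Myc and Mycn, the activators of the network, were the members that fell. Myc (chr15:61816896-61821916, build mm9, as for all gene positions here) stood at 47.6 FPKM in the wild-type line, 81.9 FPKM in the scramble line and 73.3 FPKM in the Carm1 shRNA line with vehicle. With RA it stood at 16.3, 25.4 and 25.5 FPKM in the same order. The groups did not overlap, and the wild-type line was the lowest of the 3 under both treatments. With RA, Myc kept 34.2%, 31.0% and 34.8% of its vehicle level, so lines that started from different levels lost nearly the same share. Its log2 change was -1.54 ± 0.07 (SE, adjusted p = 0.00029), and 0.481% of genes tested had a lower value.

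Mycn (chr12:12942899-12948642), the family member named for its amplification in neuroblastoma, showed another order of the lines. It stood at 32.3, 25.1 and 28.8 FPKM with vehicle and at 11.4, 5.88 and 4.64 FPKM with RA. The vehicle levels lay close together, whereas with RA the wild-type level was well above the other 2. Mycn kept 35.4% of its vehicle level in the wild-type line, 23.4% in the scramble line and 16.1% in the Carm1 shRNA line. The log2 change over the lines was -1.92 ± 0.19 (SE, adjusted p = 0.0012), and 0.134% of genes tested had a lower value. Of the summed Myc and Mycn level, Mycn made up 40.4%, 23.5% and 28.2% with vehicle and 41.2%, 18.8% and 15.4% with RA in the same order of lines.

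Max (chr12:78038256-78063235), the shared partner, changed little. Its level was 54.2, 57.8 and 57.9 FPKM with vehicle and 48.8, 50.3 and 53.8 FPKM with RA. Every RA library was below every vehicle library, but the log2 change of -0.15 ± 0.06 did not pass the test (adjusted p = 0.086). After median-of-ratios scaling it was -0.31 and passed (adjusted p = 0.012). Max was the most abundant member in every RA library, while Myc was above it in the vehicle libraries of both shRNA lines.

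Of the 5 antagonists, Mxd4, Mxi1 and Mxd1 were called higher with RA, and Mxd3 and Mnt did not pass the test. Mxd4 (chr5:34519229-34530359), a member of the Mxd family known from differentiating cells, stood at 2.01, 1.92 and 2.20 FPKM with vehicle and at 9.74, 15.9 and 14.3 FPKM with RA. That was 4.85-fold higher in the wild-type line, 8.24-fold higher in the scramble line and 6.48-fold higher in the Carm1 shRNA line. The vehicle levels differed little between lines, and the RA level was lowest in the wild-type line. The log2 change was 2.21 ± 0.14 (SE, adjusted p = 0.00055), and 1.28% of genes tested had a higher value.

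Mxi1 (chr19:53384996-53450300), which pairs with Max as Mxd proteins do, stood at 7.08, 6.48 and 7.43 FPKM with vehicle and 9.45, 9.98 and 10.1 FPKM with RA. The groups did not overlap, and the lines agreed closely, at 1.33-fold, 1.54-fold and 1.35-fold. The log2 change was 0.44 ± 0.07 (SE, adjusted p = 0.0044), and it was 0.15 and no longer passed after quantile normalization (adjusted p = 0.080).

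Mxd1 (chr6:86597039-86619153), the founding Mad protein, was the least abundant member, at 1.27, 0.693 and 1.11 FPKM with vehicle and 1.93, 1.33 and 1.49 FPKM with RA. It was higher with RA in each line, and the lowest RA library stood just above the highest vehicle library. Its log2 change was 0.36 ± 0.07 (SE, adjusted p = 0.0094), but under quantile normalization it was -0.13 (adjusted p = 0.16), so its direction rests on the scaling. The scramble vehicle value rests on about 82 reads, which gives a counting error of 11.0%, and without the scramble line the adjusted p was 0.059.

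Mxd3 (chr13:55426529-55431091), which unlike other Mxd genes is known to be expressed in dividing cells in S phase, stood at 8.84, 9.28 and 11.2 FPKM with vehicle and 12.7, 9.03 and 10.8 FPKM with RA. The groups overlapped: the wild-type line was higher with RA, by 0.48 on the log2 scale, and both shRNA lines differed by -0.04. Over the lines the log2 change was 0.14 ± 0.12 (adjusted p = 0.37), and its sign turned under median-of-ratios scaling (-0.01) and quantile normalization (-0.13). The span of Mxd3 overlaps that of Prelid1 by 105 bases, and reads there cannot be assigned where counting ignores the strand, which the sources used here leave unstated.

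Mnt (chr11:74644426-74659227), the antagonist that is present in both dividing and resting cells, stood at 13.2, 11.9 and 13.7 FPKM with vehicle and at 10.9, 11.7 and 11.6 FPKM with RA. Every RA library was below every vehicle library, by a small margin in the scramble line. The log2 change of -0.17 ± 0.08 did not pass the test (adjusted p = 0.10), whereas -0.32 when scaled by median of ratios (adjusted p = 0.010) and -0.40 under quantile normalization (adjusted p = 0.0056) did.

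Mga (chr2:119722964-119795317), the member with a T-box, stood at 23.1, 20.7 and 21.4 FPKM with vehicle and 19.8, 20.4 and 21.4 FPKM with RA. The groups overlapped, and the levels in the Carm1 shRNA line were equal to 3 digits. The log2 change was -0.08 ± 0.07 (adjusted p = 0.37), and after median-of-ratios scaling it was -0.23 and passed (adjusted p = 0.034).

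**Figure D2:**
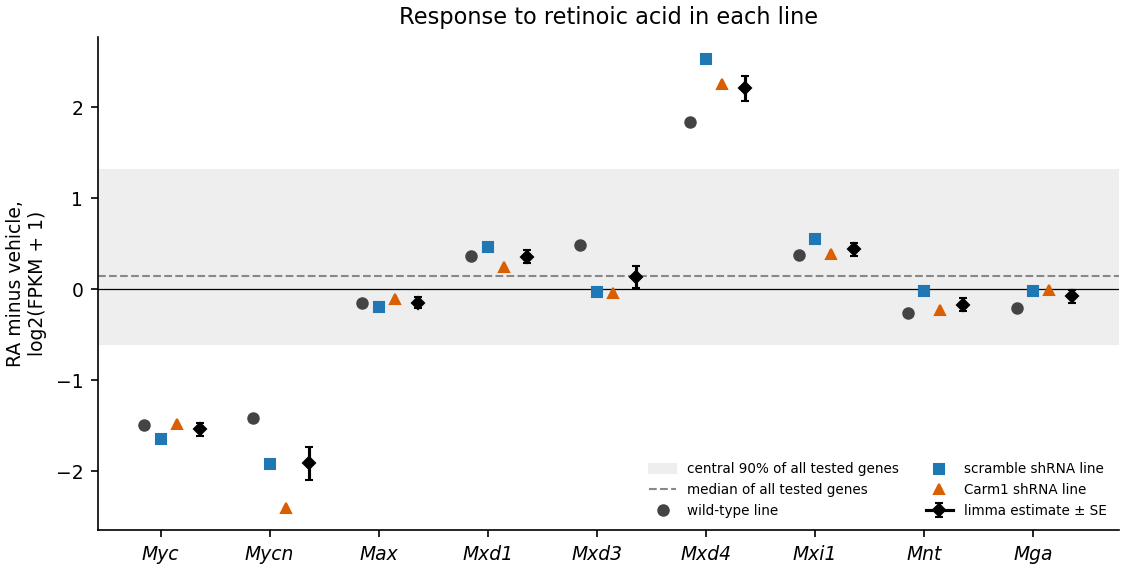
RA minus vehicle on the log2(FPKM + 1) scale for each member, with 1 coloured point per line and a black diamond for the limma estimate ± SE; the dashed line is the median of all genes tested (0.14) and the grey band runs from -0.61 to 1.31, the range that holds most of them. Mxd4 at 2.21 lies above the band and Myc and Mycn at -1.54 and -1.92 lie below it, while the other 6 members lie inside it.

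Because these proteins compete for Max, their levels were also summed, as FPKM (a level per length), with no test. Mga, which also works with Max, and the Myc family gene Mycl1 were left out of the sums. Myc and Mycn together stood at 79.9, 107 and 102 FPKM with vehicle and 27.7, 31.3 and 30.2 FPKM with RA. The 5 antagonists together stood at 32.4, 30.3 and 35.6 FPKM with vehicle and 44.8, 47.9 and 48.3 FPKM with RA. Among the genes summed, the activators were thus the more abundant side in every vehicle library and the less abundant side in every RA library. This reading depends on which genes are summed.

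The ratio of the activator to the antagonist sum was 2.46, 3.54 and 2.86 with vehicle and 0.619, 0.654 and 0.625 with RA. It was 3.98-fold lower with RA in the wild-type line, 5.41-fold lower in the scramble line and 4.58-fold lower in the Carm1 shRNA line. The vehicle ratios spread widely and the RA ratios lay within a narrow range. Within the antagonists, Mxd4 made up 6.19%, 6.36% and 6.19% of the sum with vehicle and 21.7%, 33.1% and 29.6% with RA, in the same order of lines. Activators and antagonists together stood at 2.07, 2.38 and 2.38 times the level of Max with vehicle and at 1.49, 1.57 and 1.46 times with RA. These are RNA levels, and protein was not measured.

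**Figure D3:**
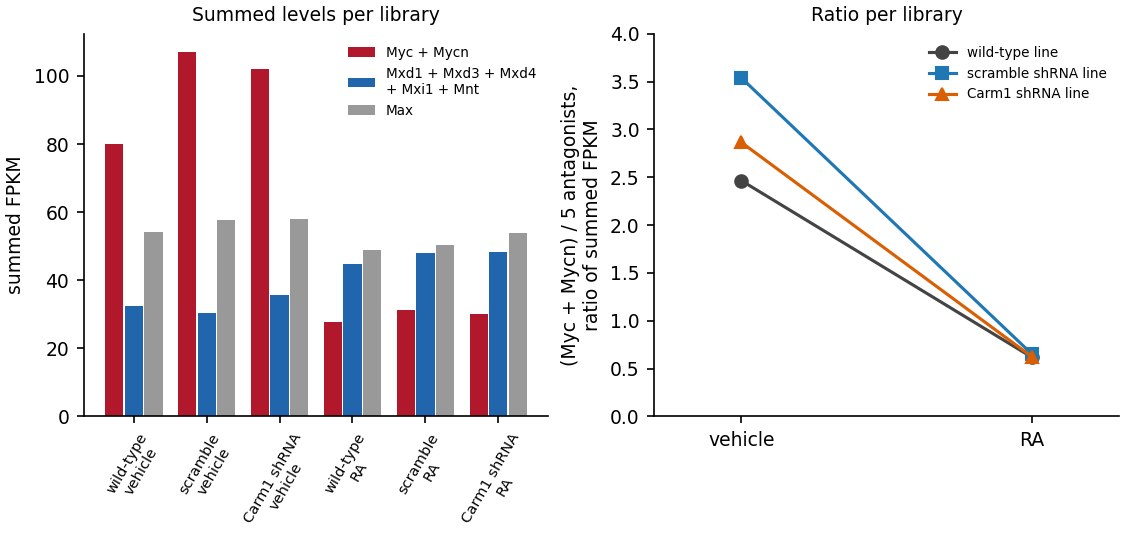
Left, summed FPKM of Myc and Mycn, of the 5 antagonists and of Max in each of the 6 libraries; right, the ratio of the first sum to the second, with a line joining the libraries of each cell line. The activator sum is above the antagonist sum in every vehicle library and below it in every RA library, and the ratio goes from 2.46 to 3.54 with vehicle to 0.619 to 0.654 with RA.

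With Carm1 lowered, no member of the network was called against the scramble control over both treatments. Of all genes tested, 0.0178% were called between the Carm1 shRNA and scramble lines, and none of the 9 members was (0 at an unadjusted p under 0.05, lowest adjusted p = 0.50). The log2 differences of the members ran from -0.08 to 0.24. For Myc the difference was -0.08 ± 0.08 (95% interval -0.29 to 0.14), for Mycn it was -0.05 ± 0.23 (95% interval -0.63 to 0.53), and for Mxd4 it was -0.00 ± 0.17 (95% interval -0.44 to 0.43). The intervals of Mycn and Mxd4 leave room for differences as large as those between the control lines.

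The wild-type line stood apart from both shRNA lines in Myc. The scramble line was above it by 0.69 ± 0.08 on the log2 scale (adjusted p = 0.037), with 1.79% of all genes called in that comparison. The Carm1 shRNA line was above it by 0.61 ± 0.08 (adjusted p = 0.028), with 5.68% of all genes called. Both comparisons share the wild-type libraries. The vehicle and RA libraries of a line are not replicate cultures, so these p-values do not measure the spread between cultures. As ratios of FPKM, Myc in the scramble line was 1.72 times the wild-type level with vehicle and 1.56 times with RA, and in the Carm1 shRNA line it was 1.54 and 1.57 times. Without the Carm1 shRNA line the adjusted p of the first comparison was 0.062, and without the scramble line that of the second was 0.079.

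No other member was called between lines. Mycn was lower than in the wild-type line by a log2 difference of -0.60 ± 0.23 in the scramble line (adjusted p = 0.20) and of -0.65 ± 0.23 in the Carm1 shRNA line (adjusted p = 0.15). By treatment, the Mycn level in the Carm1 shRNA line was 0.893 times the wild-type level with vehicle and 0.406 times with RA, and in the scramble line it was 0.778 and 0.515 times. Mxd1 in the scramble line was 0.545 times the wild-type level with vehicle, and the log2 difference over both treatments was -0.38 ± 0.09 (adjusted p = 0.093).

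Whether the RA change differed in the Carm1 shRNA line was tested as an interaction, which left 1 residual degree of freedom. Of all genes tested 0% were called, and 409 genes (3.64%) had an unadjusted p under 0.05. Mycn was the 1 member among them, and its log2 change in the Carm1 shRNA line minus that in the control lines was -0.73 ± 0.25 (95% interval -1.38 to -0.08), with an adjusted p of 1.0 by limma. The log2 changes of Mycn were -1.42 in the wild-type line, -1.92 in the scramble line and -2.40 in the Carm1 shRNA line, so the control lines also differed from each other. For Myc the interaction was 0.09 ± 0.18 (95% interval -0.36 to 0.53), and for Mxd4 it was 0.07 ± 0.31 (95% interval -0.73 to 0.87).

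**Figure D4:**
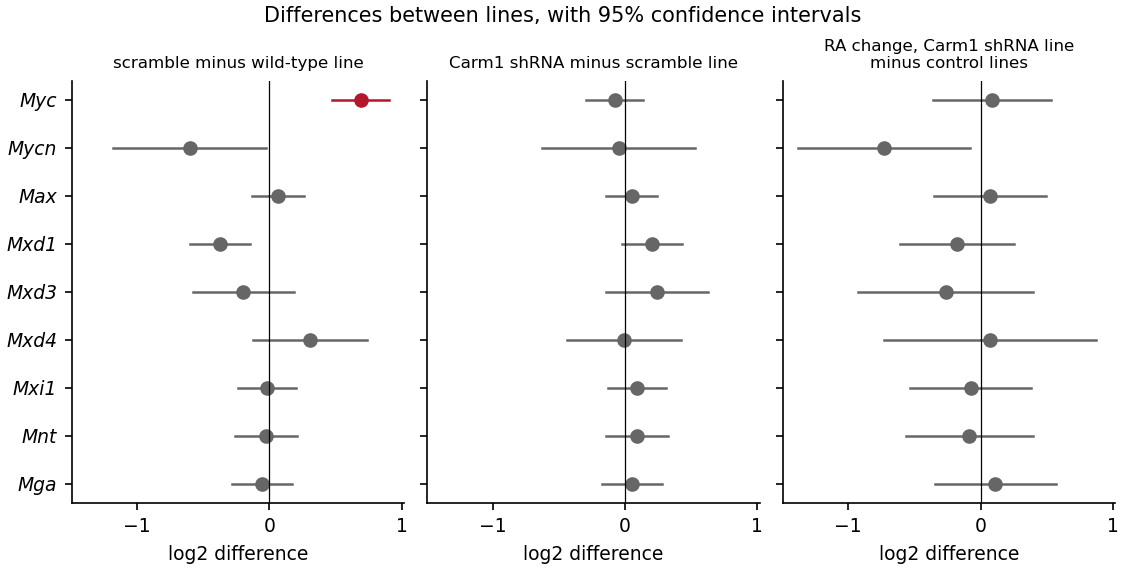
Log2 differences of the 9 members with their 95% intervals: scramble minus wild-type line and Carm1 shRNA minus scramble line, each over both treatments, and the RA change in the Carm1 shRNA line minus that in the control lines. Red marks an adjusted p under 0.05, which Myc alone reached in these panels (0.69 in the first), and Mycn lies lowest in the last (-0.73).

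Other genes of the extended network were measured beside the members. Of 6 listed, 4 were tested and 3 of them rose with RA. Over all genes tested 42.9% were called higher and 63.6% in either direction, and 4 genes are too few to be set apart from these shares. The median log2 change of the 4 was 0.29, against 0.14 over all genes tested. Mycl1, which encodes L-Myc, rose where Myc and Mycn fell, from 4.06, 3.51 and 2.09 FPKM with vehicle to 7.83, 7.89 and 5.44 FPKM with RA (log2 change 0.95 ± 0.08, adjusted p = 0.00082). At these levels it stayed below Myc in every library, but in the scramble and Carm1 shRNA lines with RA it lay above Mycn. Mycl1 was also lower in the Carm1 shRNA line than in the wild-type line, with a log2 difference of -0.58 ± 0.09 (adjusted p = 0.037), and against the scramble line the difference of -0.51 ± 0.09 did not pass the test (adjusted p = 0.20). Bmyc rose by 0.39 ± 0.07 and Mlx, the Max-like partner of the glucose-sensing Mondo factors, by 0.20 ± 0.06 (adjusted p = 0.0066 and 0.037). After quantile normalization 2 of the 4 were called higher and 1 lower.

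Genes that Myc is known to induce fell almost throughout. Of 35 listed, all were tested, and 33 were lower with RA, against 20.7% of all genes tested. None was higher, against 42.9%, and 2 did not pass the test. The median log2 change was -0.61 against 0.14 over all genes tested. Median-of-ratios scaling gave a median of -0.77 with 34 genes lower, and quantile normalization gave -0.54 with 30 genes lower. By line it was -0.56 in the wild-type line, -0.68 in the scramble line and -0.67 in the Carm1 shRNA line. The summed level of the 35 genes was 10762 to 10993 FPKM with vehicle and 7103 to 7439 FPKM with RA.

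Shmt1, an enzyme of one-carbon metabolism, fell furthest. It had 117, 99.0 and 98.7 FPKM under vehicle and 59.6, 45.5 and 42.2 FPKM under RA (log2 change -1.09 ± 0.07). Nolc1, a nucleolar phosphoprotein, fell by 1.05 ± 0.07 on the log2 scale, and Gnl3, the nucleolar GTPase nucleostemin, by 0.92 ± 0.07. Odc1, the first enzyme of polyamine synthesis and a classical Myc target, fell from 393, 473 and 402 FPKM to 209, 238 and 220 FPKM (log2 change -0.92 ± 0.06). The adjusted p of these 4 lay between 0.00064 and 0.00078. The genes that did not pass were Ccnd2, encoding a D-type cyclin, at 0.51 ± 0.49, and Tfrc, the transferrin receptor, at -0.22 ± 0.10. Between lines, 1 of the 35 induced genes (Ldha, lactate dehydrogenase A) was called between the Carm1 shRNA and wild-type lines, where 5.68% of all genes were, and 0 between the scramble and wild-type lines, where 1.79% were, so these counts lie near the background.

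Genes that Myc is known to repress were mixed. Of 12 listed 10 were tested, 6 rose, 3 fell and 1 did not pass. Calls over all genes tested were 67.4% higher, so the split of directions in this list was near the background. The median log2 change of the list was 0.61, against 0.14 over all genes tested. Gas1, a growth arrest gene, stood at 0.717, 1.13 and 1.15 FPKM with vehicle and at 12.6, 28.3 and 12.0 FPKM with RA (log2 change 3.12 ± 0.22), with no overlap between treatments. Gadd45g rose by 2.78 ± 0.23, Gata6, a regulator of primitive endoderm, by 2.56 ± 0.06, and Cdkn1c, a cyclin-dependent kinase inhibitor, by 1.58 ± 0.26, all on the log2 scale. The treatments overlapped in Cdkn1c, since its scramble level with RA (4.48 FPKM) was below its wild-type level with vehicle (4.62 FPKM). Gas1, Gadd45g and Gata6 passed the filter mainly through their RA libraries, with vehicle levels of at most 1.15, 1.13 and 0.623 FPKM. Ndrg2 fell by 0.89 ± 0.07, with no overlap between treatments. Ndrg1 and Cdkn1a, which encodes the cell cycle inhibitor p21, fell by 0.31 ± 0.07 and 0.22 ± 0.07, and their treatments overlapped. Of the list, 5 were called higher and 1 lower without the line as a block, and 4 higher and 1 lower with no filter.

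**Figure D5:**
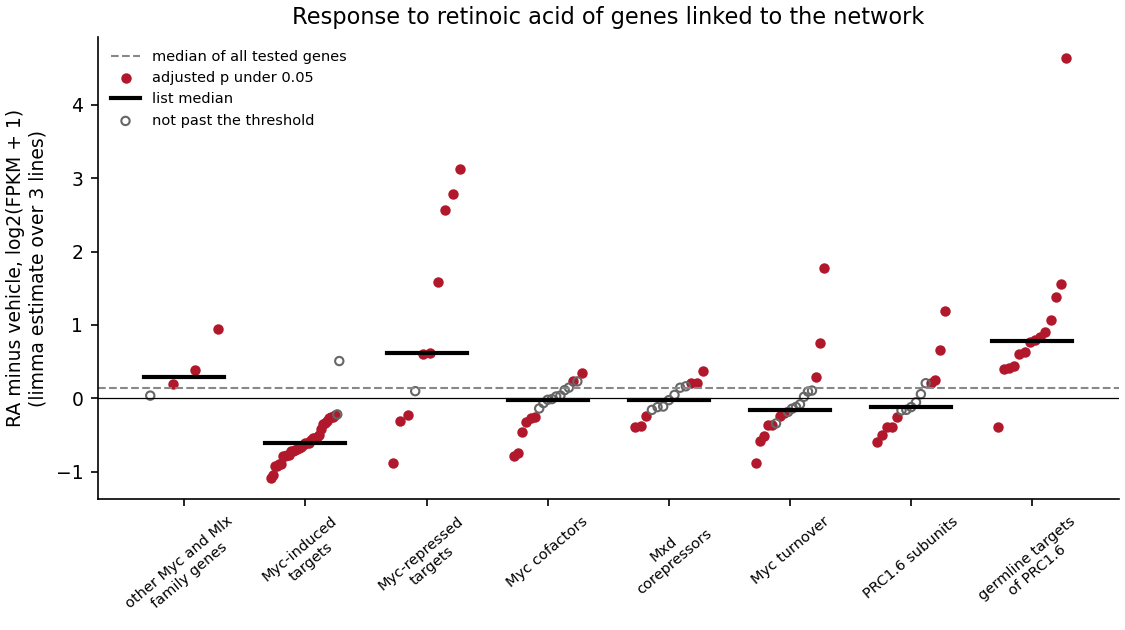
Limma estimate of RA minus vehicle on the log2(FPKM + 1) scale for every tested gene of 8 lists around the network, with 1 point per gene (filled where the adjusted p is under 0.05), a bar for each list's median and a dashed line for the median of all genes tested (0.14). The 35 Myc-induced genes lie almost all below 0 with a median of -0.61. The tested germ cell genes under PRC1.6 lie almost all above 0 with a median of 0.78, and several of them passed the filter through their RA libraries.

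Partners through which Myc and Mxd proteins act were called at shares somewhat below the 63.6% of all genes tested. Lists of this size cannot be set apart from that share. Of 17 Myc cofactors 2 were higher, 6 lower and 9 not called, with a median log2 change of -0.02. Ruvbl2 and Ruvbl1, the paired helicases of the TIP60 complex, fell by 0.79 ± 0.09 and 0.75 ± 0.07, and the acetyltransferase Kat2a fell by 0.46 ± 0.07. Supt5, an elongation factor, rose by 0.35 ± 0.08. Of 13 corepressor genes of the Mxd proteins 3 were higher, 3 lower and 7 not called, with a median of -0.02, and Sin3a, the scaffold that Mxd proteins bind, fell by 0.39 ± 0.07 whereas Hdac1 rose by 0.21 ± 0.06. Median-of-ratios scaling called 0 cofactors higher and 8 lower, and 1 corepressor gene higher and 6 lower.

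Of 18 genes that set the stability or activity of the Myc protein, 3 were higher, 7 lower and 8 not called. Their median log2 change was -0.16. The list is too small to set its called share apart from the 63.6% of all genes tested. Median-of-ratios scaling called 2 higher and 11 lower, and the fit without the line as a block called 2 higher and 4 lower. Bin1, a protein that binds Myc and was first described as a tumor suppressor, stood at 2.87, 2.63 and 4.61 FPKM with vehicle and at 9.97, 16.4 and 15.6 FPKM with RA (log2 change 1.77 ± 0.16). Gsk3b, a kinase that marks Myc for degradation, rose by 0.75 ± 0.08. Set, an inhibitor of the phosphatase that lowers Myc stability, fell from 772, 760 and 730 FPKM to 439, 391 and 396 FPKM (log2 change -0.88 ± 0.07), and Pim3, Aurka and the deubiquitinase Usp28 fell by 0.59 ± 0.08, 0.52 ± 0.08 and 0.37 ± 0.07. Fbxw7, the ubiquitin ligase that Gsk3b phosphorylation recruits, had a log2 change of 0.09 ± 0.06 and did not pass the test (adjusted p = 0.24).

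Of the 15 other subunits of PRC1.6, the complex of Mga, 9 were called (4 higher and 5 lower), a share near the 63.6% of all genes tested, with a median log2 change of -0.12, and after median-of-ratios scaling the counts were 2 higher and 8 lower. Yaf2 rose from 6.25, 5.98 and 7.23 FPKM to 15.5, 17.5 and 15.2 FPKM (log2 change 1.19 ± 0.10), and E2f6, which brings the complex to E2F sites, rose by 0.66 ± 0.06. L3mbtl2 and Wdr5 fell by 0.59 ± 0.07 and 0.49 ± 0.06, and Pcgf6, the subunit that defines this complex, by 0.26 ± 0.06.

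Germ cell genes known to be kept silent by PRC1.6 rose. Of 17 listed 16 were in the table and 14 were tested. Among these 13 rose, against 42.9% of all genes tested, and 1 fell, against 20.7%. Their median log2 change was 0.78. Median-of-ratios scaling gave a median of 0.65 with 13 genes higher, and quantile normalization gave 0.36 with 9 genes higher. Without the scramble line 11 were called higher. Several of these genes passed the filter through their RA libraries, since Taf7l and Slc25a31 were below 1 FPKM in every vehicle library, so the count does not stand for all 17.

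Stra8, a gene of meiotic entry that RA is known to induce directly, had 23.4, 32.8 and 4.29 FPKM under vehicle and 437, 580 and 266 FPKM under RA (log2 change 4.64 ± 0.32), with the Carm1 shRNA line lowest under both treatments. Mael, of the piRNA pathway, rose by 1.38 ± 0.06, Taf7l by 1.56 ± 0.08 and Dazl, an RNA-binding protein of germ cells, by 1.07 ± 0.12. Zcwpw1 was the gene that fell, by 0.39 ± 0.07.

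Markers of other cell types were followed beside these changes, and their part in them was not tested. Over all genes tested 42.9% were called higher with RA and 20.7% lower. All 6 tested of 12 extraembryonic endoderm markers rose, and their summed level was 29.8 to 32.8 FPKM with vehicle and 127 to 148 FPKM with RA. Of 9 trophoblast markers 4 were tested and 4 rose, from a sum of 7.75 to 15.4 FPKM to 28.6 to 46.3 FPKM, with Elf5 at 0 in every library. Of 10 neural markers 7 were tested, 4 rose and 2 fell, with sums of 295 to 363 FPKM and 272 to 425 FPKM and Neurog2 at 0. Of 10 fibroblast and feeder cell markers 3 were tested, 2 rose and 1 fell. Their sums were 2.10 to 2.72 FPKM with vehicle and 5.78 to 9.41 FPKM with RA, and Postn was at 0 in every library. The trophoblast, neural and fibroblast lists are too small to set their counts apart from the shares over all genes. With no filter on low values 0 trophoblast and 0 fibroblast markers were called, and 2 neural markers were called higher and 0 lower. Gata6, Dab2, Gata3, Col1a1 and Col1a2 were below 1 FPKM in every vehicle library and passed the filter through their RA libraries. The counts of tested markers that rose therefore lean upward and do not stand for the whole lists.

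Genes with profiles most like those of the most changed members were ranked by the root mean square distance between centred log2(FPKM + 1) values over the 6 libraries. For Myc they were Mpzl2 (distance 0.134), Crip2 (0.146) and Cmah (0.166), which like Myc were higher in both shRNA lines than in the wild-type line with vehicle. For Mycn they were Sfn (0.212), Adam23 (0.218) and Ly6g6e (0.225). For Mxd4 they were Qsox1 (0.064), Efnb2 (0.083) and Krt20 (0.095), and Qsox1 went from 4.38, 4.62 and 4.39 FPKM to 18.2, 27.6 and 26.8 FPKM. Efnb2 was below 1 FPKM in every vehicle library, and Krt20 was at 0.026, 0.016 and 0.014 FPKM with vehicle and at 2.60, 4.76 and 5.02 FPKM with RA. The pseudocount of 1 FPKM compresses such low values, so the likeness of Krt20 to Mxd4 holds on this scale and not for the fold change of FPKM. Efnb2 went from 0.856, 0.669 and 0.826 FPKM with vehicle to 4.72, 7.98 and 6.99 FPKM with RA.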

How the data were processed

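RNA was sequenced as single-end reads from 6 libraries. The authors deposited FPKM, and the submitters' processing notes name TopHat2, Cufflinks and build mm9. For tool versions, strand handling and any scaling between libraries the sources used here give nothing, and a header note of the workbook labels the values RPKM. The table held 20793 rows. Rows with a failed estimate (2) were left out, and a repeated symbol was represented by its most abundant row (20460 genes remained). The 11227 genes that averaged 1 FPKM or more were tested with limma 3.58.1 in R 4.3.3 on log2(FPKM + 1), with terms for line and treatment, 2 residual degrees of freedom and Benjamini-Hochberg adjustment over all of them (threshold 0.05). The same fit gave the line contrasts, and the interaction model had 1 residual degree of freedom. The line is the block because each line was measured under both treatments.

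Approximate reads were derived from the step size of low values with GENCODE transcript lengths, and intervals from such reads cover counting error only. The step was searched only within a preset range of depths, so a depth outside that range could not have been found. Promoters came from RefSeq (GRCm38.p6), and coordinates of genes are those of the deposited table (mm9). A comparison of the protein sequences was planned and not run. The members and lists were chosen with earlier results of these data known. Named were all members, up to 4 genes per list and direction called with RA and ranked by size, the 3 closest profiles to each member changed 2-fold in all lines, and Carm1. Tfrc, Ccnd2, Ldha, Fbxw7, Pcgf6, Slc25a31, Prelid1, Elf5, Neurog2 and Postn were named outside this rule or after their values were seen. Alternatives were another pseudocount, no filter, median-of-ratios and quantile scaling, a limma trend, each line left out, and no block. The fits were tested on simulated data.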

Additional observations from a re-analysis of the deposited data

Results flagged for a closer look

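Mxd3 differed in sign between lines. Its log2 change with RA was 0.482 in the wild-type line, where it went from 8.84 to 12.7 FPKM. It was -0.04 in the scramble line (9.28 to 9.03 FPKM) and in the Carm1 shRNA line (11.2 to 10.8 FPKM), changes smaller than the counting error of 5.65% at the lowest Mxd3 level, so no movement was detectable there. The difference between the wild-type and shRNA lines was not tested.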

How the results depend on the processing

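The number of members called in the RA response was 5, and 4 to 5 when a line was left out; it was 8 after median-of-ratios scaling, where Max, Mnt and Mga passed as lower. Over all genes the RA response called 7141, and 4795 to 6988 with a line left out. Without the replicate block, that is without the line term, 5699 genes and 4 members were called, and Mxd1 was lost (adjusted p = 0.073). Mxd1 turned to -0.13 under quantile normalization. Members not past the threshold also changed sign: the RA change of Mxd3 (0.14) to -0.011, -0.13 and -0.038 under median-of-ratios scaling, quantile normalization and without the wild-type line (-0.038 to 0.22 with a line left out), Mxd4 between the Carm1 shRNA and scramble lines (-0.0042) to 0.019 and 0.0056 with a pseudocount of 0.1 FPKM and under median-of-ratios scaling, and, between the Carm1 shRNA and wild-type lines, Mga (0.00064) to -0.0047 and -0.012 under median-of-ratios scaling and quantile normalization and Mxd3 (0.044) to -0.0062 under quantile normalization. Of the other results for single members, 264 kept their direction and side of the threshold, 10 were no longer past it and 5 came past it.

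The line contrasts were less stable, and the cause was not tested. The Carm1 shRNA line against the scramble line called 2 genes, 0 with no filter, 0 after quantile normalization, 22 with a limma trend and 13 without the wild-type line. The scramble against the wild-type line called 201 genes, 64 with a pseudocount of 0.1 FPKM, 0 with no filter, 91 after quantile normalization, 853 with a trend and 94 without the Carm1 shRNA line; its 1 member, Myc, became 0 under each of these except the trend. The Carm1 shRNA against the wild-type line called 638 genes, 406 with the lower pseudocount, 10 with no filter, 1284 with a trend and 29 without the scramble line; its 1 member, Myc, became 0 with no filter and without the scramble line. The interaction called 0 genes, and 1 with a trend; leaving a line out was not run for it, because no residual degree of freedom is left. The ratio of activators to antagonists changed by -2.21 on the log2 scale as a mean over lines, and by -2.53 without Mnt. Mxd1 has the fewest reads of the members.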
